A study of Homo sapiens with 4 samples.

Results

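A set of 10 genes of the desmosome was followed in breast cancer cells with and without the scaffold protein SASH1: the desmosomal cadherins DSC2, DSC3, DSG2 and DSG3, the plaque proteins JUP, PKP1, PKP2, PKP3 and DSP, and the membrane protein PERP. They were the 10 rows, of 26518 Ensembl genes in the expression table, whose identifiers carry these symbols in GENCODE release 29 on hg38. The cells were MDA-MB-468, an established human line of breast epithelial origin from a triple-negative cancer, one without hormone receptors or amplified HER2. The shControl group (2 libraries) carried a lentiviral control vector from the pGIPZ system and the shSASH1 group (2 libraries) a lentiviral short hairpin RNA against SASH1. Both groups were selected with puromycin as stable lines and grown in the same medium with serum. Neither clone nor hairpin numbers are in the labels, and separate cultures are not stated for the paired libraries of each group, so p-values here reflect the spread of these samples alone, which may be technical. The study set control against SASH1-depleted cells to find differences in their transcriptomes.

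Desmosomes are spot-like junctions that tie the keratin filaments of neighbouring epithelial cells together and give epithelia their mechanical strength. Desmogleins (DSG) and desmocollins (DSC) span the membrane and bind those of the next cell. Inside the cell plakoglobin (JUP) and plakophilins (PKP) hold the cadherin tails, and desmoplakin (DSP) links this plaque to keratins. DSG2 and DSC2 are the cadherins of simple epithelia and of nearly all cells with desmosomes, whereas DSG3 and DSC3 belong to the basal layers of stratified epithelia. PERP is a tetraspan protein of desmosomes and a known target of p63.

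The 4 cadherin genes lie in 1 cluster on chromosome 18 and did not move together, so the bases before their starts are shown. RefSeq (GRCh38.p14) promoters were matched for 8 of the 10 members, not for PKP2 and PKP3. Each line gives the 250 bases before a RefSeq start, 5′ to 3′ on the gene's own strand, and DSC2 has a second listed start that is not printed. The gene spans given below are those of GENCODE, whose starts differ. By those spans every stretch searched except that of DSG3 reaches into the gene, so a match counted here can lie inside it. Capitals mark matches, on both strands, to any of 5 motifs: GGAATG (bound by TEAD factors), TGANTCA (AP-1), CAGGTG (an E-box of the kind bound by SNAI and ZEB repressors), GGGCGG (GC box) and AACCGG (core of the grainyhead-like, GRHL, motif). A match is a description of the letters and not a bound site.
DSC3 (chr18:31042743-31042992, minus strand): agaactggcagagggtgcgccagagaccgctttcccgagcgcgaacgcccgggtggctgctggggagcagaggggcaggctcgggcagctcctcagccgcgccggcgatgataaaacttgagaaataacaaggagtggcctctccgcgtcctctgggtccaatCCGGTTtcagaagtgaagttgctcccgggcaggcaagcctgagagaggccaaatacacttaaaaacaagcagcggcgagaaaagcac
DSC2 (chr18:31102422-31102671, minus strand): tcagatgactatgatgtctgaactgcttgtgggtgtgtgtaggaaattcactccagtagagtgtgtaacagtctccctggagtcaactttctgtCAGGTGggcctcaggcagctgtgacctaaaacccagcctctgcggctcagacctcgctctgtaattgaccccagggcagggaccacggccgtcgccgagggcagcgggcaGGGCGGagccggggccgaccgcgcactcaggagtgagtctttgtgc
DSG2 (chr18:31497927-31498176, plus strand): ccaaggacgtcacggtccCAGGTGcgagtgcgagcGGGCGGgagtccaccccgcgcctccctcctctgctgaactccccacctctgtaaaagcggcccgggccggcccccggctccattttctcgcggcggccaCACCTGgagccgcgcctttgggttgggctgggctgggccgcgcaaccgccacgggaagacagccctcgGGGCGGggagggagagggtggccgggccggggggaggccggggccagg
DSG3 (chr18:31447491-31447740, plus strand): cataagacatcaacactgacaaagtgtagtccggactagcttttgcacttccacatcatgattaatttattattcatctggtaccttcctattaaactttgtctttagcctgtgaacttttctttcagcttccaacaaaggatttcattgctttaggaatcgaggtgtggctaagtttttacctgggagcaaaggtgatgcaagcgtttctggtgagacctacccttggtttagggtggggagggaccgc

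The DSC3 stretch held 1 AACCGG match, read on the reverse strand, which 5.99% of 35116 RefSeq promoters of the same length held. DSG2 held 2 CAGGTG and 2 GGGCGG matches, and DSC2 held 1 of each at the start shown. CAGGTG was found in 17.5% and GGGCGG in 42.6% of all promoters. DSG3 held no match to the 5 motifs in this window. CpG dinucleotides numbered 18 for DSC3, 12 for DSC2 (19 at its other start), 26 for DSG2 and 4 for DSG3, beside a median of 11 over all promoters. Outside the cluster, 1 TGANTCA match, a motif that reads the same on both strands, stood before PERP (6.57% of promoters held at least 1) and 1 AACCGG match before DSP. DSP also held 7 GGGCGG and 2 CAGGTG matches, and PERP 5 GGGCGG matches, overlapping ones counted separately. JUP held 2 GGGCGG matches at 1 listed start and 2 CAGGTG matches at its other start, and PKP1 held 1 GGGCGG match.

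SASH1, the targeted gene, was lower in each depleted library (3.65 TPM in replicate 1, 4.01 TPM in replicate 2) than in each control library (15.0 TPM in replicate 1, 13.0 TPM in replicate 2). TPM is the number of reads divided by gene length and then scaled to a common total per library, so levels can be compared between genes. The genes listed here summed to 924683 and 926711 TPM in shControl and to 922024 and 910830 TPM in shSASH1. The main fit used the values without rescaling. The change of SASH1 was -1.63 ± 0.13 (log2, SE; limma adjusted p = 0.00391). Rebuilding reads from TPM gave 19527713 to 24362022 per library. The epithelial label was checked on markers, and 8 epithelial genes such as EPCAM and KRT8 summed to 2747 to 2963 TPM in each library. Of the markers of other cell types, 5 of 6 fibroblast, 5 of 6 immune and 2 of 4 endothelial genes were under 1 TPM in every library. The immune list summed to 33.5 and 40.0 TPM in shControl and to 33.4 and 96.6 TPM in shSASH1, nearly all of it CD14, while PTPRC, the pan-leukocyte marker, reached at most 0.104 TPM.

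Of the 10 desmosomal genes, 8 reached the level set for testing, 1 TPM averaged over the libraries, and DSG3 and PKP1 did not. In shSASH1, 2 rose (DSG2 and PKP2), 3 fell (DSC3, PKP3 and PERP) and 3 did not pass (DSC2, JUP and DSP), by limma at a Benjamini-Hochberg adjusted p of 0.05. Among all 14458 genes tested, 18.8% rose and 13.3% fell, 32.0% in all. That split was 2712 higher and 1918 lower, against 2280 and 2434 after quantile normalization and 2537 and 2812 with voom on rebuilt reads. The median log2 change was -0.22 over the 8 tested members and 0.06 over all tested genes. The members that passed thus went in both directions. The groups did not overlap in 7 of the 8 tested members, all but JUP, against 73.6% of all tested genes.

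**Figure D1:**
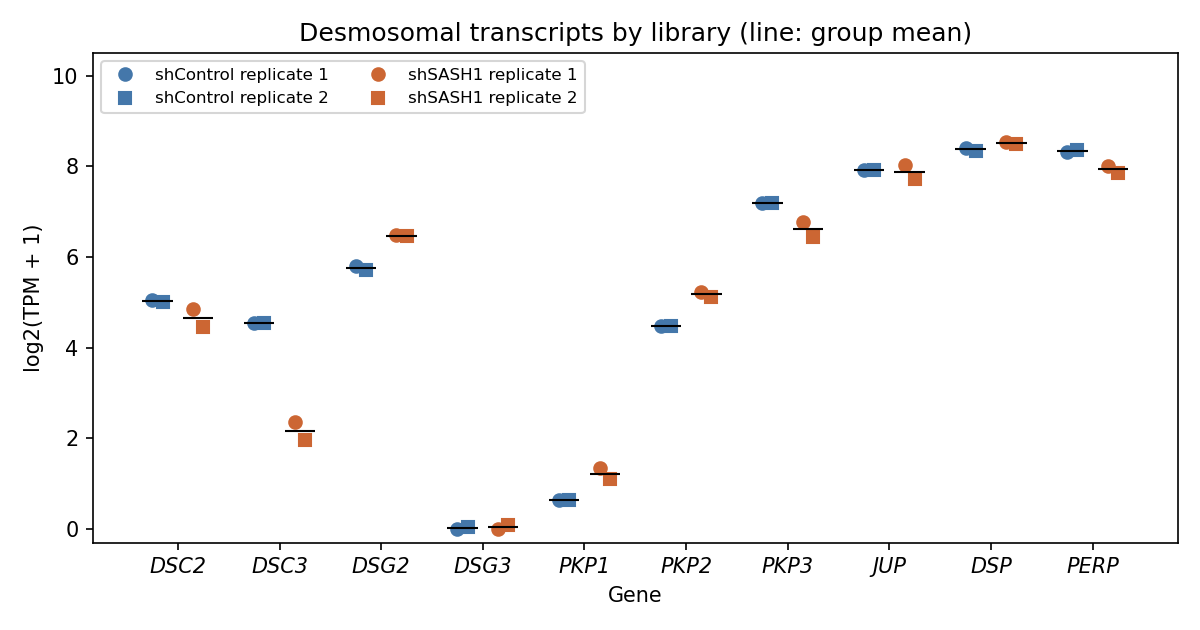
Level of each gene as log2(TPM + 1) in the 4 libraries (blue, shControl; orange, shSASH1; circles, replicate 1; squares, replicate 2; lines, group means). DSC3 drops from 22.4 to 3.50 TPM on average, DSG2 and PKP2 lie higher in both shSASH1 libraries, and DSG3 sits at or next to 0 in all 4.

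In the control cells DSP (mean 331 TPM), PERP (322 TPM) and JUP (242 TPM) were the most abundant of the 10, followed by PKP3 (145 TPM), DSG2 (53.1 TPM), DSC2 (31.7 TPM), DSC3 (22.4 TPM) and PKP2 (21.3 TPM). DSP and PERP overlapped between their libraries, and the other neighbours in this order did not. Against all tested genes DSP stood at percentile 97.6 and PKP2 at percentile 53.1 of the control level. In shSASH1 the order began with DSP (364 TPM), and PERP (244 TPM) and JUP (235 TPM) overlapped, as did PKP3 (97.7 TPM) and DSG2 (87.8 TPM). PKP2 (35.3 TPM) then lay above DSC2 (24.3 TPM), and DSC3 followed at 3.50 TPM. PKP2 had thus moved above DSC2 and DSC3, while DSG2 kept its place in the order but now overlapped PKP3.

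DSC3 (desmocollin 3; chromosome 18, 30990008 to 31042815, minus strand), a cadherin of basal stratified epithelium, had the largest change of the tested members. It stood at 22.3 and 22.4 TPM in shControl and at 4.10 and 2.90 TPM in shSASH1. The groups lay far apart, and the lowest control value was several times the highest value after depletion. The mean fell from 22.4 ± 0.0384 to 3.50 ± 0.845 TPM (SD over 2 libraries each), the control mean being 6.39 times the other, with a log2 change of -2.39 ± 0.16 (SE; limma adjusted p = 0.00308). Behind these values were 923 and 1085 rebuilt reads in shControl and 190 and 107 in shSASH1. DSC3 was the only tested member whose log2 change reached 1 in size, which 8.91% of all tested genes passed with the adjusted p. In bulk RNA, fewer cells that express DSC3 and less DSC3 RNA per cell cannot be told apart.

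DSC2 (desmocollin 2; 31058840 to 31102522, minus strand), the widely expressed desmocollin and the next gene to DSC3, did not pass. Its values were 32.2 and 31.2 TPM in shControl and 27.7 and 20.8 TPM in shSASH1. Both shSASH1 libraries lay below both controls, but they differed from each other by more than replicate 1 differed from the controls. The log2 change was -0.38 ± 0.15 (95% interval -0.78 to 0.01; limma adjusted p = 0.116). Without shSASH1 replicate 1 it was -0.58 (adjusted p = 0.00843), without shSASH1 replicate 2 it was -0.19 (adjusted p = 0.0785), and with voom on rebuilt reads it was -0.47 (adjusted p = 0.0431). The antisense gene DSCAS overlaps DSC2, with 1 to 2 rebuilt reads per library.

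DSG2 (desmoglein 2; 31498043 to 31549008, plus strand), the desmoglein of simple epithelia, rose. It stood at 54.9 and 51.4 TPM in shControl and at 88.0 and 87.6 TPM in shSASH1. The shSASH1 libraries were nearly equal and both well above the controls. The mean went from 53.1 ± 2.49 to 87.8 ± 0.284 TPM, or 1.65-fold, with a log2 change of 0.71 ± 0.06 (SE; limma adjusted p = 0.00469). An antisense gene, DSG2-AS1, overlaps its end with 3 to 10 rebuilt reads per library, against 1989 to 3570 for DSG2.

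DSG3 (desmoglein 3; 31447795 to 31478702, plus strand), the basal keratinocyte desmoglein, was too low at this depth to compare the groups. It was listed at 0 in shControl replicate 1 and shSASH1 replicate 1, at 0.0261 TPM in shControl replicate 2 and at 0.0685 TPM in shSASH1 replicate 2. These correspond to 1 and 2 rebuilt reads, so no ratio is given. The other genes of the cluster, DSC1, DSG1 and DSG4, which belong mostly to upper epidermis and hair, were near 0 as well, DSC1 with at most 0.268 TPM and 4 to 7 rebuilt reads per library and DSG1 and DSG4 with at most 1 read.

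**Figure D2:**
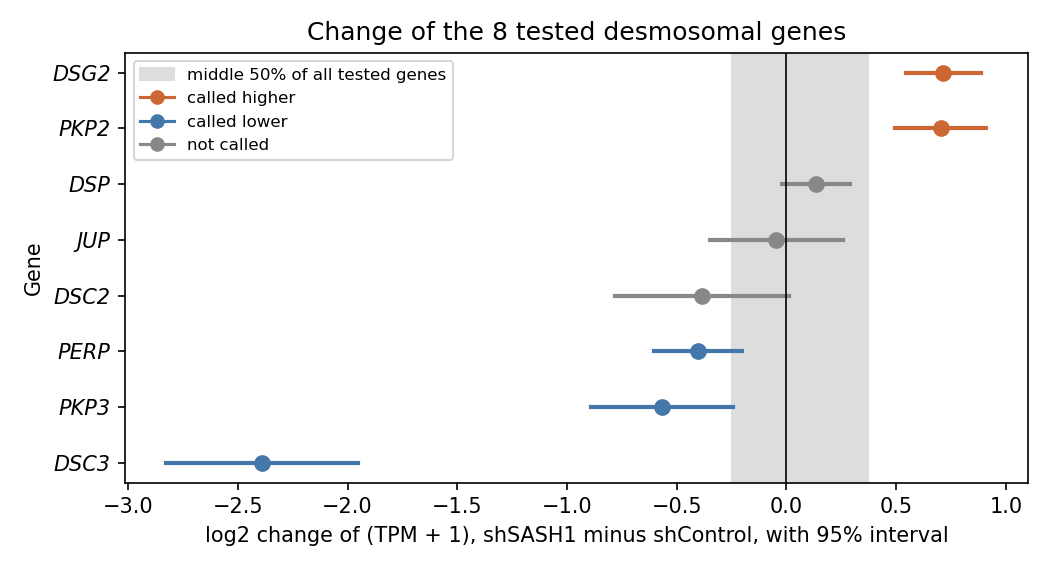
Log2 change of (TPM + 1), shSASH1 minus shControl, of the 8 tested members with limma's 95% interval (orange, rose; blue, fell; grey, did not pass); the shaded band holds the middle 50% of all tested genes. DSC3 at -2.39 stands apart from the other members, which lie between -0.57 and 0.71.

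The make-up of the cadherin transcripts changed while their sum moved little. DSC2, DSC3, DSG2 and DSG3 summed to 109 and 105 TPM in shControl and to 120 and 111 TPM in shSASH1. DSG2 supplied 50.2% and 48.9% of that sum in the control libraries and 73.4% and 78.7% after depletion. DSC3 supplied 20.4% and 21.3%, and then 3.42% and 2.61%. Desmocollins alone summed to 54.5 and 53.6 TPM in shControl and to 31.8 and 23.7 TPM in shSASH1. The ratio of DSC3 to DSC2 was 0.695 and 0.719 in shControl and 0.148 and 0.140 in shSASH1, so it was alike within a group although both genes were lowest in replicate 2 of shSASH1. The ratio of DSG2 to DSC2 went from 1.71 and 1.65 to 3.17 and 4.21. These sums and ratios have no model behind them, and with 2 libraries on each side the smallest two-sided p of an exact permutation test is 0.333.

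**Figure D3:**
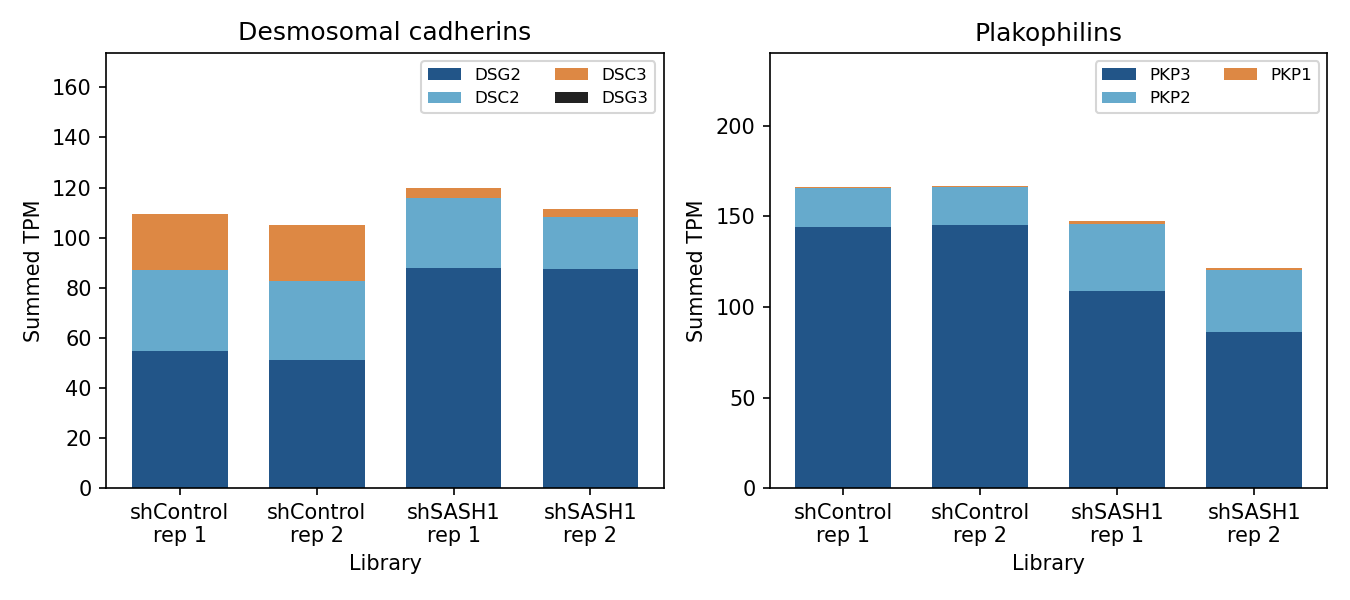
Summed TPM of the desmosomal cadherins (left) and plakophilins (right) in each of the 4 libraries, split by gene. The cadherin bars keep a height of 105 to 120 TPM while the DSG2 part grows and the DSC3 part shrinks; the plakophilin bars drop from 166 and 167 TPM to 147 and 122 TPM.

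The cadherin genes span 559.0 kb of chromosome 18, and the direction differed along it. DSC3 fell, DSC2 did not pass and DSG2 rose, with the genes between DSC2 and DSG2 under 1 TPM. Of 5 other tested protein-coding genes within 2 Mb, 2 rose and 0 fell, against 18.8% and 13.3% of all tested genes. RNF138, a ubiquitin ligase, stood at 36.0 and 37.5 TPM in shControl and at 46.1 and 49.6 TPM in shSASH1 (log2 change 0.37, limma adjusted p = 0.0247). GAREM1, an adaptor of EGF receptor signalling, stood at 6.49 and 5.32 TPM and then at 9.24 and 10.3 TPM (log2 change 0.65, adjusted p = 0.0330). The other 3, B4GALT6, TRAPPC8 and RNF125, did not pass. The 20 Mb window that holds the cluster had 52 tested genes and a median log2 change of 0.13. Centred on that window, DSC3 had a log2 change of -2.52 and DSG2 one of 0.58, and both still passed (adjusted p = 0.00414 and 0.00922), while RNF138 and GAREM1 did not (adjusted p = 0.0767 and 0.0641). GAREM1 also missed the threshold without shSASH1 replicate 2 (adjusted p = 0.0687) and with no filter on low values (0.0692), and RNF138 missed it without a variance trend (adjusted p = 0.0511).

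**Figure D4:**
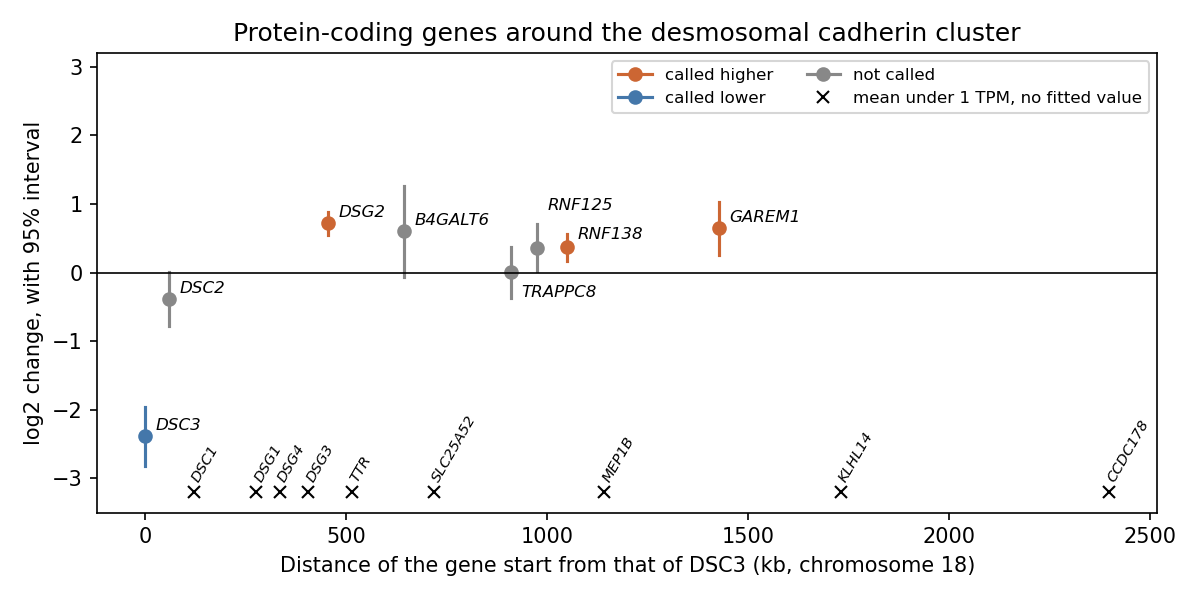
Log2 change with 95% interval of protein-coding genes by the distance of their start from that of DSC3 in kb on chromosome 18 (orange, rose; blue, fell; grey, did not pass; crosses, mean under 1 TPM and no fitted value). DSC3 at -2.39 and DSG2 at 0.71 lie 455 kb apart, with DSC2 at -0.38 next to DSC3.

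Among the plakophilins, armadillo proteins that cluster the cadherins and recruit DSP, PKP2 and PKP3 went in opposite directions. PKP2 (chromosome 12, 32790745 to 32896840, minus strand), the plakophilin of simple epithelia and heart, stood at 21.2 and 21.4 TPM in shControl and at 36.6 and 34.0 TPM in shSASH1. The groups were well apart, and the mean rose 1.66-fold from 21.3 ± 0.125 to 35.3 ± 1.89 TPM (log2 change 0.70 ± 0.08, limma adjusted p = 0.00678). PKP3 (chromosome 11, 392614 to 404908, plus strand), the plakophilin found in most epithelial layers, stood at 144 and 145 TPM in shControl and at 109 and 86.4 TPM in shSASH1. Both shSASH1 libraries were below the controls, the second more so than the first. The mean fell from 145 ± 0.563 to 97.7 ± 16.0 TPM (log2 change -0.57 ± 0.12, limma adjusted p = 0.0291). PKP3 missed the threshold with no filter on low values (adjusted p = 0.0511) and without a variance trend (adjusted p = 0.0594).

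PKP1 (chromosome 1, 201283452 to 201332993, plus strand), the plakophilin of suprabasal stratified epithelium, was near the floor and not tested. It stood at 0.549 and 0.563 TPM in shControl and at 1.55 and 1.14 TPM in shSASH1. These values rest on 20 and 24 rebuilt reads against 63 and 37. Per total reads the ratio of the pooled groups was 2.33, with a 95% exact interval of 1.62 to 3.40 that covers counting error only. Tested with no filter, its log2 change was 0.58 (limma adjusted p = 0.0679) and it did not pass. PKP3 made up 86.9% and 86.8% of plakophilin TPM in shControl and 74.1% and 71.1% in shSASH1, and PKP2 made up 12.8% in both control libraries and then 24.9% and 27.9%.

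The core plaque proteins did not pass. JUP (plakoglobin; chromosome 17, 41754604 to 41786931, minus strand), which binds the tails of desmosomal and classical cadherins, was at 241 and 242 TPM in shControl and at 260 and 210 TPM in shSASH1. The shSASH1 libraries lay on either side of the controls. The log2 change was -0.05 (95% interval -0.35 to 0.26; limma adjusted p = 0.775). It was -0.20 without shSASH1 replicate 1 (adjusted p = 0.0163) and 0.11 without shSASH1 replicate 2 (adjusted p = 0.0651), so 1 library set its sign. DSP (desmoplakin; chromosome 6, 7541575 to 7586717, plus strand), the plakin that anchors keratins, was at 340 and 323 TPM in shControl and at 370 and 358 TPM in shSASH1. The log2 change was 0.13 (95% interval -0.02 to 0.29; limma adjusted p = 0.145). The 91 tested genes of its 20 Mb window had a median of 0.34, and centred on it the value for DSP was -0.21 (adjusted p = 0.0632).

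PERP (chromosome 6, 138088505 to 138107511, minus strand) fell. It stood at 316 and 328 TPM in shControl and at 257 and 230 TPM in shSASH1, without overlap. The mean went from 322 ± 8.97 to 244 ± 19.4 TPM (log2 change -0.40 ± 0.08, limma adjusted p = 0.0218). Its window, of 62 tested genes on the chromosome arm that also carries SASH1, had a median of -0.15. Centred on that window PERP had a log2 change of -0.25 and did not pass (adjusted p = 0.0726), nor did it without a variance trend (adjusted p = 0.0549). TP63, its known activator in epithelia, was at 0.160 and 0.331 TPM in shControl and at 0.183 and 0.0255 TPM in shSASH1.

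The shSASH1 libraries differed from each other in these genes. All 8 tested members were lower in replicate 2 than in replicate 1, against 42.3% of all tested genes, with a median of -0.24 over the members and 0.05 over all tested genes. The difference was -0.40 for DSC2, -0.39 for DSC3, -0.33 for PKP3, -0.31 for JUP, -0.16 for PERP, -0.11 for PKP2, -0.05 for DSP and -0.01 for DSG2. With either shControl library left out, 0 genes of the whole table passed limma's adjusted threshold (3446 and 3326 genes at an unadjusted p under 0.05), and the spread in those fits comes from the shSASH1 pair alone, whose median SD on the log2 scale was 0.13 against 0.05 in the shControl pair. The log2 changes of DSC3, DSG2, PKP2, PKP3 and PERP kept their signs in those fits.

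Other genes of the junction and its partners are given by lists. The main-fit counts of these lists stand beside 18.8% that rose and 13.3% that fell among all 14458 tested genes. Of 10 further desmosome-associated genes 5 were tested, and 0 rose and 0 fell, with a median log2 change of 0.03. At an unadjusted limma p under 0.05 it was 0 higher and 2 lower, the cornified-layer protein CDSN and the plakin EVPL, and voom on rebuilt reads called the same 2 lower. PKP4, a plakophilin relative of both desmosomes and adherens junctions, was at 69.8 and 69.0 TPM in shControl and at 75.7 and 79.1 TPM in shSASH1 (log2 change 0.15, limma adjusted p = 0.113; 0.19 and adjusted p = 0.0298 without shSASH1 replicate 1). DSC1, DSG1, DSG4, PPL and TMEM47 were not tested, and TMEM47, a tetraspan junction protein, was listed at 0 in all 4 libraries.

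Of 14 tested keratins, the filaments that desmosomes anchor, 1 rose and 2 fell, with a median of -0.33. At an unadjusted limma p under 0.05 the counts were 1 higher and 5 lower, and voom on rebuilt reads also called 1 higher and 5 lower. The hair-type keratin KRT81 stood at 1555 and 1670 TPM in shControl and at 716 and 400.4 TPM in shSASH1 (log2 change -1.59, limma adjusted p = 0.0194). KRT15, a basal keratin, fell by 1.42 on the log2 scale (adjusted p = 0.00684), and the stress keratin KRT6A rose by 0.92 (adjusted p = 0.0197). The 15 keratins summed to 8683 and 9081 TPM in shControl and to 7824 and 5692 TPM in shSASH1, and in replicate 2 of shSASH1 12 of the 14 stood below replicate 1. KRT6C was under 1 TPM in all 4 libraries and not tested. The log2 difference ran from -1.30 for KRT17 to 0.65 for KRT13, a gene under 1 TPM in both, and was 0.36 for KRT6A. Most keratins and all tested members thus stood lower in replicate 2, by unlike amounts. So did 42.3% of all tested genes, among them ACTB (4118 TPM in replicate 1 and 2213 TPM in replicate 2). Whether keratin and desmosomal levels depend on each other was not tested.

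In the adherens junction list 1 of 9 tested genes rose and 1 fell, with a median of -0.02. Both the unadjusted limma p under 0.05 and voom on rebuilt reads gave 1 higher and 4 lower. The actin linker vinculin (VCL) rose by 0.52 (limma adjusted p = 0.0339) and the immunoglobulin-type adhesion protein NECTIN1 fell by 0.62 (adjusted p = 0.00869). VCL missed the threshold after median-of-ratios scaling (adjusted p = 0.0676), after quantile normalization (0.0538), with no filter (0.0576) and without a variance trend (0.0673). CDH1 (E-cadherin), whose junctions precede desmosomes as epithelial sheets form, was at 76.9 and 80.4 TPM in shControl and at 66.5 and 48.2 TPM in shSASH1, which did not reach the threshold (log2 change -0.47, adjusted p = 0.0913). CDH2 (N-cadherin) was not tested, with at most 0.0314 TPM.

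Of 14 tested transcription factors that act on epithelial junction genes, 3 rose and 4 fell, with a median of 0.16 (4 higher and 5 lower with voom on rebuilt reads). GRHL3, a grainyhead-like factor of epidermal barrier genes, stood at 23.6 and 22.1 TPM in shControl and at 11.2 and 10.4 TPM in shSASH1 (log2 change -1.02, limma adjusted p = 0.00501), and the epithelial ETS factor EHF fell by 0.55 (adjusted p = 0.00736). TWIST1, a repressor of epithelial genes, was listed at 0 in each control library and reached 3.28 and 2.68 TPM after depletion. The cadherin repressors ZEB2 and SNAI2 reached at most 0.0243 and 0.0448 TPM, and ZEB1 was at 0.0788 and 0.135 TPM in shControl and at 0.546 and 0.728 TPM in shSASH1. SNAI1, a repressor of the SNAI family, was at 2.40 and 2.56 TPM in shControl and at 3.49 and 9.30 TPM in shSASH1. It did not pass (log2 change 0.97, limma adjusted p = 0.147).

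Of 11 genes of desmosome assembly and turnover, 2 rose and 3 fell, with a median of 0.13, and voom on rebuilt reads gave the same counts. The kallikrein proteases KLK5 and KLK7, which cleave desmosomal cadherins as epidermis sheds its outer cells, had log2 changes of -1.82 and -3.35 (limma adjusted p = 0.0143 and 0.00443) and so fell. KLK7 went from 15.3 and 15.8 TPM to 1.12 and 0.234 TPM. TGM1, a transglutaminase that cross-links the cornified envelope, fell by 1.28 (adjusted p = 0.00471). PRKCA, a kinase that loosens desmosomal adhesion, rose by 0.85 (adjusted p = 0.0113).

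**Figure D5:**
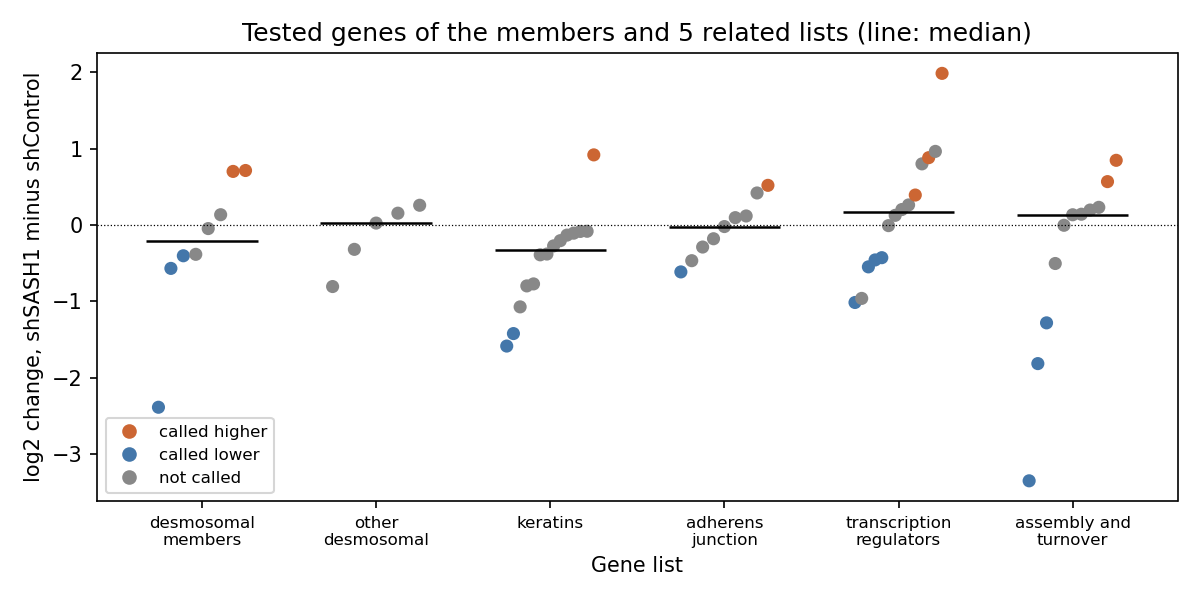
Log2 change of each tested gene in the desmosomal members and 5 related lists (points sorted within a list; orange, rose; blue, fell; grey, did not pass; line, list median). Medians lie between -0.33 for the keratins and 0.16 for the transcription regulators, and KLK7 at -3.35 and DSC3 at -2.39 are the lowest points.

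The genes whose profile over the 4 libraries was most like that of DSC3 were sought among 11279 others with a mean of at least 5 TPM, by Euclidean distance in log2(TPM + 1) centred on each gene's mean. The 5 nearest were LIPK, an epidermal lipase (distance 0.10), LINC02159, a long noncoding RNA (0.14), SEC14L4, a lipid-binding protein (0.18), KCNQ1, a potassium channel (0.19), and HSD17B2, a steroid dehydrogenase (0.21). LIPK stood at 10.8 and 10.6 TPM in shControl and at 1.52 and 0.796 TPM in shSASH1. HSD17B2 read 14.6 TPM in each control library, against 1.90 and 1.30 TPM in shSASH1. Their log2 changes ran from -2.22 for SEC14L4 to -2.59 for HSD17B2. On the TPM scale, without the added 1, the control mean was 7.20 times (SEC14L4) to 10.4 times (LINC02159) that after depletion, a larger ratio than the 6.39 of DSC3. None of the 5 lies on chromosome 18, and likeness over 4 libraries is a description on the log2(TPM + 1) scale only.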

How the data were processed

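RNA-seq was run on TRIzol-extracted total RNA of 2 shControl and 2 shSASH1 libraries, prepared with an NEBNext Ultra kit, per the labels' protocols. The authors deposited TPM for each Ensembl gene. The submitters' processing notes name STAR, DESeq2 and the build hg38, with no roles. How reads were counted, with which annotation, gene lengths and strand setting, is not given in the sources used here.

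Columns were matched to libraries by title. Symbols and 1-based positions came from GENCODE release 29. Genes averaging 1 TPM or more were tested on log2(TPM + 1) with limma 3.58.1 in R 4.3.3 (lmFit, eBayes with a trend, two-sided, no block), and p-values were Benjamini-Hochberg adjusted over all 14458 genes at 0.05. A log2 change on this scale understates the change of low genes. Read numbers were rebuilt from TPM times exon-union length with a scale per library. Of values up to 20 reads, 88.9% to 89.4% came within 0.05 of a whole number, so totals are estimates. Python 3.11.15 with pandas 2.3.3 was used for the tables.

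The procedure was run on simulated data in which each gene had the same spread in both groups. In the real data the median SD on the log2 scale was 0.13 in shSASH1 and 0.05 in shControl. That run therefore cannot tell how unequal spread affects the adjusted p-values. The members, the 5 related lists, the marker lists and the tests were chosen with earlier results of these data known. Named were all members, up to 4 passing genes per list, untested list genes, the remaining cadherins and PKP4 of the cluster families, neighbours within 2 Mb and the 5 genes most like DSC3. CDH1, CDSN, EVPL, SNAI1, KRT13, KRT17, ACTB and the named epithelial and immune markers were chosen after their values were seen. CTNND1 was not analysed here, and some list genes are not reported here.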

Additional observations from a re-analysis of the deposited data

How the results depend on the processing

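The count of desmosomal members that rose (2) and fell (3) was recomputed under a pseudocount of 0.1, no filter, a mean of at least 5 TPM, median-of-ratios scaling, quantile normalization, no variance trend, 20 Mb window centring, leaving out single libraries, a minimum absolute log2 change of 1 and, chosen after seeing the data, voom on rebuilt reads. Without a variance trend 1 member fell, and with the minimum log2 change, which adds a criterion, the counts were 0 and 1. With no filter 2 fell (PKP3 missed), with window centring 2 fell (PERP missed), and with voom 4 fell (DSC2 added). Leaving out a library gave 0 to 2 members that rose and 0 to 5 that fell; 0 came from leaving out either shControl library, and 5 (DSC2 and JUP added) from leaving out shSASH1 replicate 1. With the replicate block 2 rose and 3 fell; same-numbered libraries had a correlation of deviations of -0.03 and share only a number; GAREM1 missed the threshold with it. A lone library was assumed to vary like the other group. The log2 change of DSP was -0.21 with window centring and that of JUP was -0.20 without shSASH1 replicate 1 and 0.11 without shSASH1 replicate 2; the values of DSP and the last one of JUP missed the threshold, and the cause was not tested. Of 112 recomputed member values, 89 kept their sign and side of the threshold. Some of these could not change side. DSC2, JUP and DSP did not pass in the main fit, and the minimum log2 change can only remove a pass. Without either shControl library the threshold was out of reach of the whole table, so their side was fixed there as well. In some settings the log2 change equals that of the main fit, so its sign could not move. These were no filter, a mean of at least 5 TPM, no variance trend, the replicate block and the minimum log2 change. Depth is known only as rebuilt reads, DSG3 and PKP1 were too low to test, and 2 libraries per group limit every p-value.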
